A study of Homo sapiens with 18 samples.

Results

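The 10 genes described here encode the mitotic kinesins KIF11, KIF14, KIF15, KIF18A, KIF18B, KIF20A, KIF20B, KIF23, KIF2C and KIF4A. They were picked by symbol, with earlier results of these data known, from the 26668 gene symbols of an RNA-seq table of pancreatic cancer cells. All 10 were in the table, and all 10 had a mean of at least 1 FPKM (sequenced fragments corrected for gene length and library size) in each of the 3 cell lines, so none was lost to the filter on low values. The lines were PANC1, MIA PaCa-2 and PATU8988T, established human lines, with 3 control and 3 OFD1 knockdown libraries each, 18 in all. OFD1 is a protein of the centrioles and of the base of the primary cilium. Knockdown libraries carried an inducible (Tet-on) shRNA against OFD1, shOFD1, and were taken 72 h after doxycycline was added. The control libraries are labelled WT, untreated and, in their titles, shControl, whereas the study's methods describe DMSO-treated Tet-on cells, so what vector the controls carried was not settled here. Every knockdown culture and no control culture received doxycycline, and the effect of the drug and that of the shRNA cannot be told apart. The series' design text names day 0 and day 3, whereas the methods give 72 h for both arms, so whether control and knockdown cells also differed in culture time was not settled here, and such a difference cannot be told apart from the knockdown. Replicates 2 and 3 of both PATU8988T groups bear other cell line labels (PaTu 8989T and PaTu 8990T) and were grouped by their titles. Whether the replicates came from separate cultures is not given in the sources used here, so p-values measure the spread between these libraries, which may be technical.

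Kinesins are motor proteins that use ATP to move along microtubules or to take microtubule ends apart. The mitotic kinesins build the spindle, line the chromosomes up on it and then split the cell. Most of them are made only as cells approach mitosis, under promoters that are shut in resting and G1 cells and opened in G2, and their transcripts are therefore plentiful in proliferating tumour lines. In bulk RNA, fewer cells in G2 or mitosis and less RNA per dividing cell cannot be told apart.

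The reads behind each value were recovered from the table as the smallest whole numbers that give the deposited values, and came to between 32246761 and 39121571 per library. Each member had between 293 and 10426 reads in every library, so counting error was small. OFD1 itself, given here as a check of the labels, had log2 fold changes of -1.07 in PANC1, -1.10 in PATU8988T and -0.61 in MIA PaCa-2 (adjusted p = 2.70e-06, 5.47e-05 and 0.0232). The last of these was -0.76 without control replicate 2, and its call was lost without filtering (adjusted p = 0.0504) and when any MIA PaCa-2 library other than control replicate 2 was left out (adjusted p from 0.0608 to 0.0899). Of 6 epithelial markers, the keratins KRT8 and KRT18 were at 319 to 947 FPKM in every group. EPCAM and CDH1 were near 0 in MIA PaCa-2, and KRT19 was near 0 in PATU8988T. CDH1 was at 0.276 FPKM in PATU8988T controls and 0.105 FPKM after knockdown. KRT7 was at 0.197 to 0.847 FPKM in these 2 lines. Of 6 mesenchymal markers, VIM lay above both keratins in every group, at 591 to 4900 FPKM. COL1A2 was at 162 FPKM in MIA PaCa-2 controls and 205 FPKM after knockdown, and near 0 in PANC1 and PATU8988T. COL1A1 was at 26.1 FPKM in PANC1 controls and 22.3 FPKM after knockdown, and near 0 in MIA PaCa-2 and PATU8988T. CDH2 was at 8.77 FPKM in PANC1 controls and 4.76 FPKM after knockdown. It was at 7.91 and 7.18 FPKM in PATU8988T, and listed at 0 in MIA PaCa-2. ACTA2 was at 1.24 FPKM in MIA PaCa-2 controls and 5.03 FPKM after knockdown. It was at 3.63 and 3.34 FPKM in PATU8988T and at 0.0826 and 0.232 FPKM in PANC1. PDGFRB was near 0 in every group. Of 6 immune and endothelial markers, CD3E was listed at 0 in all groups. Their summed level, nearly all of it CD68, was 32.1 to 37.7 FPKM in PANC1 controls and 17.1 to 19.5 FPKM after PANC1 knockdown. MIA PaCa-2 controls held 49.3 to 67.4 and knockdown libraries 73.3 to 77.2 FPKM, and PATU8988T controls 13.7 to 13.9 and knockdown libraries 9.82 to 11.7 FPKM. Its part in the kinesin values was not tested.

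The promoters of these genes are shown first because most members, KIF20A and KIF2C excepted, hold a short element near their start sites that the choice of genes did not use. The cell cycle genes homology region (CHR) is a binding element of MuvB complexes, which hold G2/M genes silent as DREAM and switch them on together with MYBL2 and FOXM1. The windows come from RefSeq (build GRCh38.p14), in which all 10 members were matched. They are written 5′ to 3′ on the strand of the gene, with the CHR match in capitals. The CHR was searched on both strands as TTTGAA or TTCGAA, so that TTCAAA in a window is TTTGAA on the other strand. For KIF20B, the match nearest to the start site is the one in capitals.
KIF11 (chr10:92593090-92593119, plus strand): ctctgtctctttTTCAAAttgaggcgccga
KIF15 (chr3:44761747-44761776, plus strand): ccaagcgccaaaTTCAAAtttgcggccatc
KIF18A (chr11:28108149-28108178, minus strand): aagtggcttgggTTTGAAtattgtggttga
KIF18B (chr17:44947754-44947783, minus strand): ccgcccggctaaTTTGAAcgcaaggcgccg
KIF4A (chrX:70290058-70290087, plus strand): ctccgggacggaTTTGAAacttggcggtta
KIF23 (chr15:69414282-69414311, plus strand): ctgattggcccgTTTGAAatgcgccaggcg
KIF20B (chr10:89701602-89701631, plus strand): tggccgccattgTTTGAAtttgaaaacggt
KIF14 (chr1:200620733-200620762, minus strand): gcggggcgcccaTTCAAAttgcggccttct

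Within 250 bases before and 50 bases after the RefSeq start, a CHR was found in 8 of the 10 members, against 16.6% of 27305 promoters and 10.5% of the 7557 promoters of genes tested in all 3 lines. KIF20A and KIF2C had no match in this window. The CCAAT box, the binding element of NF-Y, was searched as CCAAT on both strands and was found in 8 of the 10 members, KIF15 and KIF2C excepted, against 35.7% and 37.8% of the same promoters. In the 7 members that had both elements in the window, the CHR began downstream of the nearest CCAAT box. The distance was 122 bases in KIF20B and ran from 9 bases in KIF23 to 35 in KIF18A in the other 6. This range was read from these genes themselves, and the spacing in other promoters was not counted. In KIF20B, the 2 CHR matches lay after the start site and the CCAAT boxes at -131 and -98. The E2F letters TTCCCGC and TTCGCGC were found in 0 of the 10 members, against 8.60% and 15.3%. A match to these letters is a description of the window and not a measurement of binding.

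One MIA PaCa-2 library stood apart from its replicates and bears on every MIA PaCa-2 result below. In control replicate 2, the difference of each gene from the mean of the other 2 controls followed the GC content of its transcript, with a Pearson r of 0.88 over 9901 genes (genes are not independent replicates). Over the 10 members r was 0.96, and the difference ran from -1.23 on the log2 scale for KIF20B, whose transcript has the lowest GC content of the members at 34.2%, to 0.44 for KIF18B, which has the highest at 62.4%. KIF20A and KIF2C, at 48.4% and 50.1% GC, differed by little in this library. In the MIA PaCa-2 knockdown libraries, no member differed from its replicates by more than 0.15. Therefore the fold changes of the members in MIA PaCa-2, and the counts of the gene lists, are given with and without control replicate 2.

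**Figure D1:**
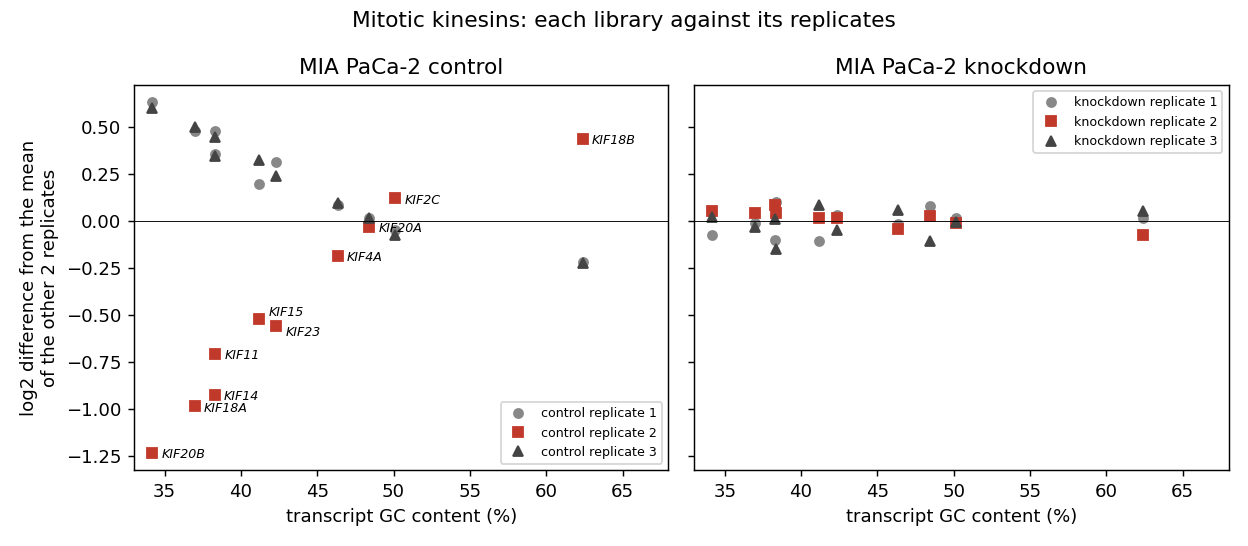
Log2 difference of each mitotic kinesin in each MIA PaCa-2 library from the mean of the other 2 replicates of its group, against the GC content of its transcript in percent (left, control; right, knockdown). In control replicate 2 (red squares) the difference rises with GC content from -1.23 for KIF20B to 0.44 for KIF18B, and the knockdown libraries lie close to 0.

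The question addressed within each line was whether knockdown of OFD1 changed the mitotic kinesin transcripts. In PANC1, all 10 were lower after knockdown with an adjusted p below 0.05 (limma, adjusted over 10902 genes), where 32.2% of all genes tested were lower by this rule. Their median log2 fold change was -0.93, against 0.06 over all genes tested. Of the 10, KIF11, KIF15 and KIF20A also passed a fold change below 0.5, as did 4.84% of all genes. Every control library lay above every knockdown library for all 10 members, as it did for 33.4% of genes. The summed level of the members was 150 to 154 FPKM in the 3 control libraries and 77.8 to 81.1 FPKM in the 3 knockdown libraries.

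In MIA PaCa-2, 7 of the 10 were lower with an adjusted p below 0.05, against 21.7% of the 10758 genes tested, and KIF14, KIF18A and KIF20B did not pass. The median log2 fold change was -0.60, against -0.03 over all genes. Only KIF20A passed the fold threshold, as did 3.68% of genes. The same 7 members had every control library above every knockdown library, against 31.3% of genes. Without control replicate 2, all 10 members were lower with an adjusted p below 0.05, but so were 39.8% of all genes, and KIF11, KIF15 and KIF20A then passed the fold threshold, as did 3.78% of genes. The median of the 10 was then -0.70. With each library centred within 20 bins of transcript GC content, an alternative added after this library was seen, 7 members were lower and 34.2% of genes.

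In PATU8988T, 0 of the 10 were lower with an adjusted p below 0.05, where 18.5% of the 10698 genes tested were lower, or 0.841% with the fold threshold. On the other side 2, KIF23 and KIF4A, were higher, where 20.9% were higher. With an unadjusted p below 0.05 none was lower either, and the lowest unadjusted p of the members below control was 0.0613, for KIF18A. The median log2 fold change was -0.05, against 0.03 over all genes. The summed level was 206 to 212 FPKM in control and 200 to 215 FPKM in knockdown. Differences between the PATU8988T knockdown libraries also followed GC content, with r of -0.62 in replicate 1 and 0.62 in replicate 2 over 9892 genes. With GC centring, KIF11, KIF14, KIF15 and KIF2C were lower in PATU8988T with an adjusted p below 0.05, by between 0.09 and 0.25 on the log2 scale, and 25.6% of genes were lower. KIF23 stayed higher under this centring and KIF4A lost its call.

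**Figure D2:**
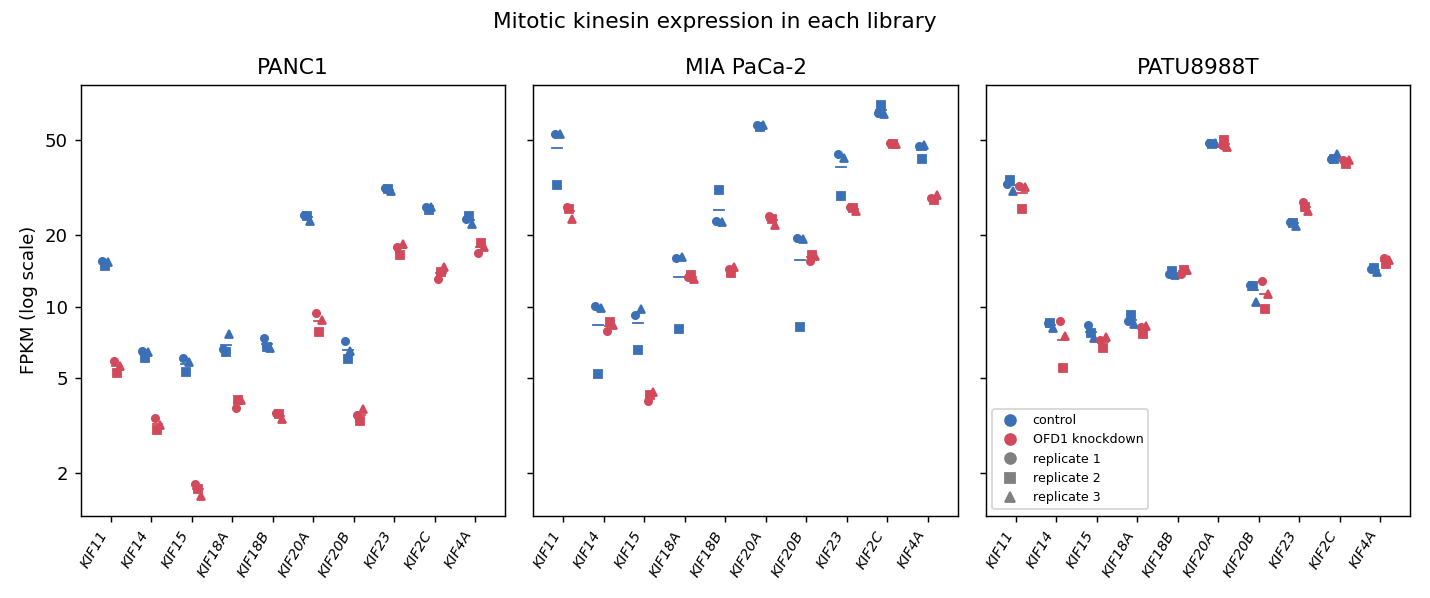
FPKM of the 10 mitotic kinesins in each of the 18 libraries (log axis; blue, control; red, OFD1 knockdown; circles, squares and triangles, replicates 1 to 3; short lines, group means of 3 libraries). In PANC1 all red points lie below the blue ones, in MIA PaCa-2 control replicate 2 (blue squares) departs from its replicates, and in PATU8988T most red and blue points share a range.

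KIF11 and KIF15 are the plus-end motors that push the spindle poles apart. KIF11 is the tetrameric motor that makes the spindle bipolar, and KIF15 can take over from it. In PANC1, KIF11 was at 15.6, 14.8 and 15.4 FPKM in the control libraries and at 5.92, 5.28 and 5.65 FPKM in the knockdown libraries. It fell by 62.8%, far more than the spread of either group (log2 fold change -1.43, standard error (SE) 0.056, adjusted p = 9.95e-09). KIF15 was at 6.06, 5.31 and 5.86 FPKM in control and at 1.81, 1.72 and 1.61 FPKM in knockdown. It fell by 69.0%, the most of the 10 members in PANC1 (log2 fold change -1.69, SE 0.086, adjusted p = 6.63e-08), at rank 100 from the lowest log2 fold change of the 10902 genes tested.

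In MIA PaCa-2, KIF11 was at 53.1, 32.4 and 52.8 FPKM in control and at 26.2, 25.6 and 23.4 FPKM in knockdown. Control replicate 2 lay between the other controls and the knockdown libraries. The log2 fold change of KIF11 was -0.84 (SE 0.196, adjusted p = 0.0152), and -1.08 without control replicate 2. Without any one of the 3 knockdown libraries, KIF11 lost its call (adjusted p from 0.0506 to 0.0645). KIF15 was at 9.23, 6.59 and 9.81 FPKM in control and at 4.02, 4.27 and 4.40 FPKM in knockdown. The libraries did not overlap, and the fall was -0.98 on the log2 scale (SE 0.162, adjusted p = 0.00436) or -1.15 without control replicate 2. In PATU8988T, KIF11 was at 32.6, 33.8 and 30.4 FPKM in control and at 32.0, 25.7 and 31.7 FPKM in knockdown, where replicate 2 was the low one (-0.12, adjusted p = 0.264). KIF15 was at 8.36, 7.76 and 7.39 FPKM in control and 7.24, 6.71 and 7.44 FPKM in knockdown. The groups overlapped and the difference did not pass the test (-0.13, adjusted p = 0.129).

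KIF18A, KIF18B and KIF2C act at microtubule plus ends during chromosome alignment. KIF18A damps the swings of aligned chromosomes, KIF18B limits the length of astral microtubules, and KIF2C (also called MCAK) takes microtubules apart and so helps to correct wrong attachments. In PANC1, KIF18A was at 6.64, 6.46 and 7.69 FPKM in control and at 3.77, 4.05 and 4.07 FPKM in knockdown (log2 fold change -0.79, adjusted p = 9.38e-06). KIF18B was at 7.35, 6.75 and 6.72 FPKM in control and at 3.57, 3.53 and 3.38 FPKM in knockdown (-0.97, adjusted p = 5.76e-07). KIF2C was at 26.1, 25.4 and 26.2 FPKM in control and at 13.0, 14.0 and 14.6 FPKM in knockdown (-0.90, adjusted p = 8.86e-08). KIF18A thus fell by 42.0% and KIF18B fell by 48.9% on the scale of the fit, and no control library of the 3 genes overlapped with knockdown.

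In MIA PaCa-2, the 3 genes did not move alike. KIF18A was at 15.9, 8.05 and 16.1 FPKM in control and at 13.3, 13.6 and 13.1 FPKM in knockdown. The knockdown libraries thus lay above control replicate 2 and below the other controls, and the log2 fold change was 0.06 (adjusted p = 0.866), turning to -0.27 (adjusted p = 2.20e-04) without that library. KIF18B was at 22.7, 30.8 and 22.7 FPKM in control, with replicate 2 the high one, and at 14.4, 13.8 and 14.6 FPKM in knockdown. The fall of KIF18B was -0.82 on the log2 scale (adjusted p = 0.00421), and -0.67 without control replicate 2. KIF2C was at 65.0, 70.3 and 64.3 FPKM in control and at 48.5, 47.9 and 48.0 FPKM in knockdown. It fell by 27.5% (-0.46, adjusted p = 0.00269, or -0.42 without control replicate 2), and its groups did not overlap.

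In PATU8988T, KIF2C was at 41.5, 41.7 and 43.5 FPKM in control and at 41.2, 39.6 and 41.2 FPKM in knockdown. KIF18A was at 8.71, 9.19 and 8.43 FPKM in control and at 8.20, 7.64 and 8.33 FPKM in knockdown. For both, every knockdown library lay below every control library, as for 24% of all genes, yet the differences of -0.05 and -0.12 did not pass the test (adjusted p = 0.301 and 0.120). KIF18B was at 13.6 to 14.1 FPKM in control and 13.7 to 14.3 FPKM in knockdown (0.03, adjusted p = 0.672).

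KIF4A is a chromokinesin that binds DNA and condensin and, with PRC1, sets the length of the central spindle. It changed least of the members in PANC1, from 23.2, 24.0 and 22.1 FPKM in control to 16.8, 18.5 and 17.8 FPKM in knockdown (log2 fold change -0.38, SE 0.049, adjusted p = 5.74e-05). In MIA PaCa-2, KIF4A was at 47.2, 41.6 and 47.4 FPKM in control and at 28.4, 28.1 and 29.5 FPKM in knockdown (-0.66, SE 0.081, adjusted p = 0.00143, or -0.72 without control replicate 2). In PATU8988T it was at 14.4, 14.5 and 14.0 FPKM in control and at 16.0, 15.1 and 15.7 FPKM in knockdown, 9.04% higher. The groups did not overlap, as for 27.9% of genes higher in knockdown, and the rise of 0.12 was just past the threshold (adjusted p = 0.0472). It lost its call with quantile normalization (adjusted p = 0.0772), with no filter (0.0508) and when any PATU8988T library other than knockdown replicate 2 was left out (0.0974 to 0.142).

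The exons of KIF4A overlap 77 bases of PDZD11 on the opposite strand (GENCODE 29), and the strandedness of the counting is not given in the sources used here. PDZD11 fell by 0.96 on the log2 scale in PANC1 and by 0.82 in MIA PaCa-2, and its part in the KIF4A values was not tested. The near-identical retrocopy KIF4B was at 0.0902 to 0.408 FPKM in the 6 groups. The exons of KIF20A overlap 132 bases of BRD8 and 68 bases of CDC23, and those of KIF18A overlap 61 bases of METTL15, all on the opposite strand. None of these 3 neighbours was lower with an adjusted p below 0.05 in PANC1, where CDC23 rose by 0.65 and METTL15 by 0.52. BRD8 fell in MIA PaCa-2 by 0.43. The exons of KIF23 overlap 231 bases of AC027237.3 and those of KIF2C overlap 175 bases of AL592166.1, also on the opposite strand. Neither AC027237.3 nor AL592166.1 has values in these data.

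KIF23, KIF20A, KIF20B and KIF14 serve the last steps of division. KIF23 (MKLP1) bundles the central spindle together with RACGAP1, KIF20A (MKLP2) carries the chromosomal passenger complex to it, KIF20B (MPP1) acts in the completion of cytokinesis, and KIF14 brings citron kinase to the midbody. In PANC1, KIF20A was at 24.3, 23.9 and 22.9 FPKM in control and at 9.43, 7.84 and 8.79 FPKM in knockdown. It fell by 63.2% (log2 fold change -1.44, SE 0.065, adjusted p = 2.54e-08). KIF23 was at 31.3, 31.0 and 30.6 FPKM in control and at 17.8, 16.5 and 18.3 FPKM in knockdown (-0.82, adjusted p = 8.55e-08). KIF20B was at 7.16, 6.02 and 6.49 FPKM in control and at 3.51, 3.33 and 3.72 FPKM in knockdown (-0.88, adjusted p = 4.95e-06). KIF14 was at 6.51, 6.07 and 6.43 FPKM in control and at 3.43, 3.03 and 3.19 FPKM in knockdown (-0.96, adjusted p = 1.14e-06). No control library of these 4 genes overlapped with a knockdown library.

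In MIA PaCa-2, KIF20A was at 57.8, 56.5 and 57.7 FPKM in control and at 23.9, 23.3 and 21.9 FPKM in knockdown. Its 3 controls lay within a narrow range, replicate 2 included. It fell by 59.7%, the most of the members in this line (log2 fold change -1.31, SE 0.070, adjusted p = 1.56e-04, or -1.32 without control replicate 2). KIF23 was at 43.6, 29.1 and 42.2 FPKM in control and at 26.2, 26.0 and 25.2 FPKM in knockdown. Its fall of -0.55 on the log2 scale (adjusted p = 0.0325) was -0.73 without control replicate 2. The KIF23 call was lost without filtering (adjusted p = 0.0578), with quantile normalization (0.0989) and without any other MIA PaCa-2 library (0.0860 to 0.106).

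KIF20B and KIF14, like KIF18A, were far lower in control replicate 2 than in replicates 1 and 3. KIF20B was at 19.5, 8.18 and 19.2 FPKM in control and at 15.6, 16.5 and 16.3 FPKM in knockdown (0.15, adjusted p = 0.738). KIF14 was at 10.0, 5.20 and 9.89 FPKM in control and at 7.91, 8.63 and 8.34 FPKM in knockdown (0.04, adjusted p = 0.898). Apart from control replicate 2, every control library of both genes lay above every knockdown library, as for 43.9% of all genes tested. Without it, each was lower by 0.26 on the log2 scale (adjusted p = 3.26e-04 for KIF20B and 0.00142 for KIF14).

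In PATU8988T, KIF20A was at 48.7, 47.9 and 48.3 FPKM in control and at 47.4, 49.9 and 46.6 FPKM in knockdown. Its log2 fold change of -0.01 had a 95% confidence interval from -0.10 to 0.08, far from the changes of -1.44 and -1.31 in PANC1 and MIA PaCa-2. KIF23 was at 22.7, 22.3 and 21.8 FPKM in control and at 27.4, 26.1 and 25.2 FPKM in knockdown, 17.5% higher with no overlap (0.23, SE 0.044, adjusted p = 0.00296). KIF14 was at 8.51, 8.50 and 8.10 FPKM in control and at 8.70, 5.55 and 7.55 FPKM in knockdown. Knockdown replicate 2 was the low library and replicate 1 lay above all controls, and the difference did not pass the test (-0.23, adjusted p = 0.202), but passed it without knockdown replicate 1 (-0.37, adjusted p = 0.0306). KIF20B was at 10.5 to 12.3 FPKM in control and 9.82 to 12.8 FPKM in knockdown (-0.05, adjusted p = 0.714).

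**Figure D3:**
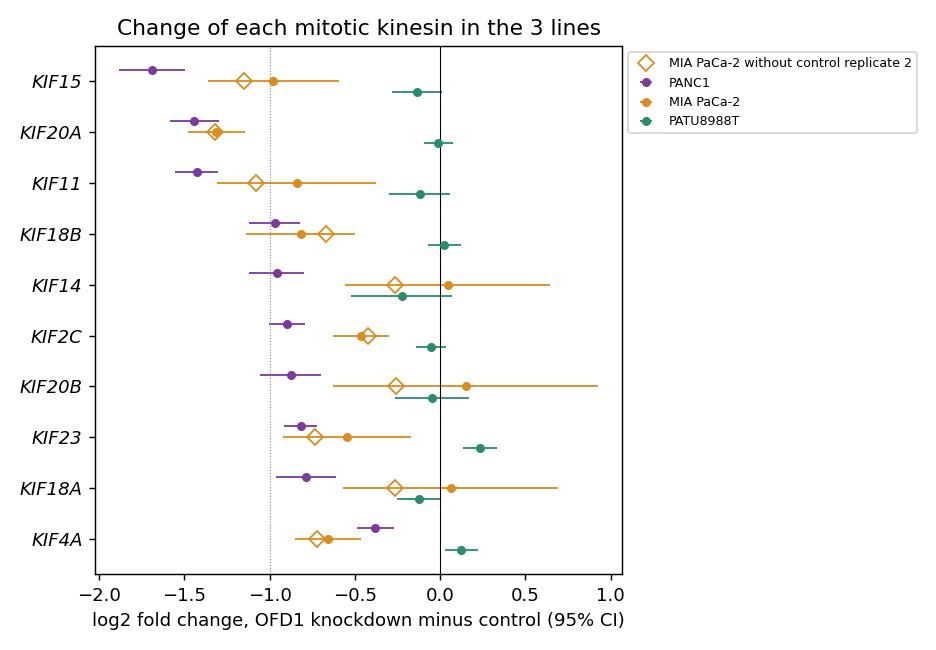
Log2 fold change of each mitotic kinesin, knockdown minus control, with its 95% confidence interval, in PANC1, MIA PaCa-2 and PATU8988T (filled circles), and in MIA PaCa-2 without control replicate 2 (open diamonds); the dotted line marks a fold change of 0.5. KIF15, KIF20A and KIF11 are lowest in PANC1 and, without control replicate 2, in MIA PaCa-2, whereas PATU8988T values lie between -0.23 and 0.23.

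The difference between lines was tested itself, as an interaction term fitted to all 18 libraries and 9083 genes. The log2 fold change was lower in PANC1 than in PATU8988T for 8 of the 10 members and for 18.7% of all genes, a share that also counts genes that rose in either line. The difference in log2 fold change ran from -0.51 for KIF4A (adjusted p = 1.66e-04) to -1.55 for KIF15 (adjusted p = 2.22e-06). KIF18A and KIF20B did not pass (-0.67, adjusted p = 0.0513, and -0.83, adjusted p = 0.0554). This fit pools the spread of all lines. Without MIA PaCa-2 control replicate 2 all 10 passed, with adjusted p = 2.44e-06 for KIF18A and 8.38e-06 for KIF20B. The share of all genes that passed in the fit without this library was not counted. The log2 fold change was lower in MIA PaCa-2 than in PATU8988T for 7 members, against 31% of genes. This difference was largest for KIF20A (-1.30, SE 0.083, adjusted p = 5.83e-09). The intervals of the other 3 were wide, from -0.31 to 0.85 for KIF14, from -0.35 to 0.72 for KIF18A and from -0.48 to 0.88 for KIF20B. Without control replicate 2 these differences were -0.04, -0.14 and -0.21, and did not pass the test.

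The log2 fold change was lower in PANC1 than in MIA PaCa-2 for 6 members, against 17.3% of genes, namely KIF11, KIF14, KIF15, KIF18A, KIF20B and KIF2C. KIF4A went the other way and fell further in MIA PaCa-2, by 0.28 on the log2 scale (SE 0.082, adjusted p = 0.0124), where the change was lower in MIA PaCa-2 for 26.1% of genes. With quantile normalization the KIF4A difference was 0.12 and did not pass (adjusted p = 0.332). For KIF20A, the difference of -0.13 did not pass the test (interval from -0.31 to 0.05, adjusted p = 0.221), although GC centring made it -0.30 and moved it past the threshold (adjusted p = 0.00198). The intervals for KIF18B and KIF23 ran from -0.42 to 0.12 and from -0.59 to 0.04. With GC centring both passed (-0.27, adjusted p = 0.00562 for KIF18B and -0.31, adjusted p = 3.84e-04 for KIF23), and KIF23 also passed without MIA PaCa-2 control replicate 1 (-0.38, adjusted p = 0.0384). Without control replicate 2, the differences for KIF11, KIF18A and KIF20B were smaller, at -0.35, -0.52 and -0.62, and still passed the test, and KIF18B also differed (-0.30, adjusted p = 9.08e-04).

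The order of the levels changed with knockdown in PANC1 and MIA PaCa-2. FPKM is scaled by gene length, so levels of different genes can be set side by side within a line, but not between lines, since the gene lengths behind the PANC1 values differ from those of the other lines. In PANC1 controls, KIF23 led with 31.0 ± 0.348 FPKM (SD, n = 3), ahead of KIF2C at 25.9 ± 0.455. KIF20A and KIF4A followed with overlapping ranges at 23.7 and 23.1, then KIF11 at 15.3. KIF18B, KIF18A, KIF20B and KIF14 lay between 6.34 and 6.94 with ranges that overlapped from each to the next, and KIF15 was last at 5.75 ± 0.387. After knockdown, KIF4A, the fourth in control, was level with KIF23 at the top (17.7 ± 0.896 and 17.5 ± 0.901).

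In MIA PaCa-2 controls, KIF2C led with 66.5 ± 3.31 FPKM (SD, n = 3), followed by KIF20A with 57.3 ± 0.710. KIF11, KIF4A and KIF23 overlapped at 46.1, 45.4 and 38.3 FPKM. Without control replicate 2, their means were 52.9, 47.3 and 42.9 FPKM and their ranges did not overlap. After knockdown, KIF2C still led with 48.2 ± 0.327, and KIF20A, now behind KIF4A, KIF23 and KIF11, was at 23.0 ± 1.01, in a range that overlapped with that of KIF11. In PATU8988T, KIF20A led in control with 48.3 ± 0.414 and in knockdown with 48.0 ± 1.71 FPKM, and KIF2C was the second in both.

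The members were also compared with the rest of the kinesin family, by lists chosen with earlier results known. Of 5 further kinesins with a role in mitosis, KIF2B was not tested and the other 4 were lower in PANC1, where 32.2% of all genes were lower. KIFC1, a minus-end motor that focuses spindle poles, changed by -1.18 on the log2 scale, and CENPE, which carries chromosomes to the metaphase plate, by -1.10. KIF22, a chromokinesin, changed by -0.67 and KIF2A, a depolymerase, by -0.31. In MIA PaCa-2, KIFC1 (-0.89) and KIF22 (-0.82) were lower, where 21.7% of all genes were lower, and CENPE and KIF2A did not pass the test. All 4 were lower without control replicate 2, at -0.78 for KIFC1, -0.71 for KIF22, -0.72 for CENPE and -0.31 for KIF2A, as were 39.8% of all genes. All 4 were lower with array weights too, where the share of all genes was not counted. In PATU8988T, none of the 4 passed. The medians of this list were -0.03 in PATU8988T, -0.59 in MIA PaCa-2 and -0.89 in PANC1.

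In PANC1, the counts for kinesins outside mitosis lay near the shares of all genes. Of 8 cilium kinesins tested in PANC1, 3 were lower and 3 higher, with a median log2 fold change of 0.19. Of all genes in PANC1, 32.2% were lower and 40.1% higher. In MIA PaCa-2, 2 of 6 cilium kinesins were lower and 3 higher, against 21.7% and 18.7% of all genes. Without control replicate 2 these counts were the same, against 39.8% and 35.4% of all genes. In PATU8988T, 2 of 6 cilium kinesins were lower and 0 higher, against 18.5% and 20.9% of all genes. KIF3C changed by -0.63 in PATU8988T, and by 0.25 in PANC1 and 0.45 in MIA PaCa-2. KIF3A, a motor subunit of the kinesin-2 that carries cargo into cilia, was lower in each line, with log2 fold changes of -0.68 in PATU8988T, -0.85 in MIA PaCa-2 and -1.02 in PANC1 (adjusted p at most 0.0106) and no overlap of libraries in any of them. Its partner KIFAP3 was higher in PANC1 (0.24) and MIA PaCa-2 (0.49). Of 15 transport kinesins and light chains tested in PANC1, 4 were lower and 6 higher, against 32.2% and 40.1% of all genes. Their median was 0.04. KIF16B, an endosome motor, was lower in each line (-0.68, -0.65 and -0.49 in PANC1, MIA PaCa-2 and PATU8988T). In MIA PaCa-2, 3 of 15 were lower and 3 higher, against 21.7% and 18.7% of all genes. The neuronal vesicle motor KIF1A rose most (2.02, adjusted p = 1.68e-04). The counts became 8 lower and 6 higher without control replicate 2, against 39.8% and 35.4% of all genes, and KIF1A was at 2.12. In PATU8988T, 3 of 13 were lower and 1 higher, against 18.5% and 20.9% of all genes.

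**Figure D4:**
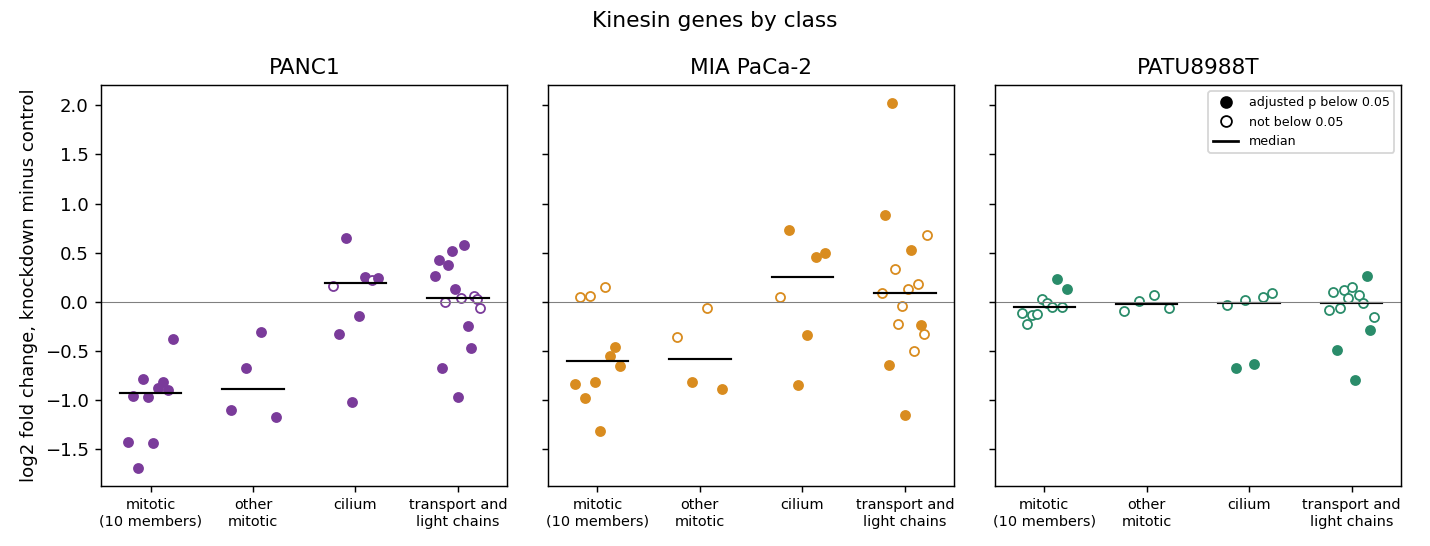
Log2 fold change, knockdown minus control, of kinesin genes by class in each line (filled circles, adjusted p below 0.05; open circles, not below 0.05; black lines, medians of the class). The medians of the 10 members are -0.05 in PATU8988T, -0.60 in MIA PaCa-2 and -0.93 in PANC1, and the cilium and transport classes have medians between -0.02 and 0.25.

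A list of 26 partners and kinases of the mitotic kinesins was examined in the same way. In PANC1, 21 of 26 were lower and 4 higher, with a median of -0.95, against 32.2% and 40.1% of all genes. TPX2, which holds KIF11 and KIF15 on the spindle, changed by -1.91, GTSE1, a regulator of KIF2C, by -1.60, CKAP5, a microtubule polymerase, by -1.43, and PRC1, which recruits KIF4A, by -1.29. In MIA PaCa-2, 16 of 26 were lower and 3 higher, with a median of -0.62, against 21.7% and 18.7% of all genes, among them GTSE1 (-1.45), TPX2 (-1.30), PLK1, a kinase that binds KIF20A (-1.30), and CKAP5 (-1.26). The counts were 21 and 4 without control replicate 2, against 39.8% and 35.4% of all genes. CIT, the citron kinase that KIF14 binds, fell in PANC1 (-0.85). In MIA PaCa-2, CIT did not pass (-0.06, adjusted p = 0.613), though it did without control replicate 2 (-0.10, adjusted p = 0.0302). KIF14 itself had values of -0.96 in PANC1 and 0.04 in MIA PaCa-2, or -0.26 in MIA PaCa-2 without control replicate 2. In PATU8988T, 3 of 25 were lower, by at most 0.16 on the log2 scale (TPX2, CKAP5 and CIT), and 5 were higher, with MAPRE1, an end-binding protein, at 0.33. With 18.5% of all genes lower and 20.9% higher in this line, these shares lie near or below the background.

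Markers of the cell cycle were lower after knockdown in PANC1 and MIA PaCa-2, as the kinesins were, whereas in PATU8988T most S phase markers were higher. The summed level of 10 G2/M markers was 410 to 416 FPKM in the PANC1 controls and 202 to 205 FPKM in knockdown. MIA PaCa-2 had 1099 to 1180 and 714 to 726 FPKM, and PATU8988T had 662 to 675 and 683 to 688 FPKM. PANC1 had 10 of these markers lower, MIA PaCa-2 had 7, and PATU8988T had 0 lower and 1 higher. MIA PaCa-2 had 9 lower without control replicate 2. Of 12 S phase markers, all were lower in PANC1 and likewise in MIA PaCa-2, with and without control replicate 2. PATU8988T had 8 higher and 0 lower. The shares of all genes are those just given. The part of the markers in the kinesin values was not tested. Of 13 factors that act on G2/M promoters, PANC1 had 6 lower and 5 higher, MIA PaCa-2 had 5 and 2, and PATU8988T had 0 and 7. The PANC1 shares lie near the 32.2% and 40.1% of all genes, and the count lower in MIA PaCa-2 ran from 3 to 9 over the alternatives, with 9 lower and 3 higher without control replicate 2. FOXM1 changed by -0.85, -0.66 and 0.03 in PANC1, MIA PaCa-2 and PATU8988T, MYBL2 by -1.13, -0.40 and 0.30, and CDKN1A, which encodes the CDK inhibitor p21, by 0.65, 2.95 and 0.20. In MIA PaCa-2 without control replicate 2, FOXM1, MYBL2 and CDKN1A were at -0.67, -0.25 and 3.17.

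The members varied together across the 18 libraries to different degrees. After centring each line on its mean, KIF11 had a Pearson r of 0.99 and KIF15 of 0.99 with the mean of the other 9 members, whereas KIF18A had 0.74 and KIF20B 0.68. These values are a description, since libraries of one condition share a treatment and MIA PaCa-2 control replicate 2 departs by GC content. Of 9073 other genes, the 10 with the highest r with the mean of the members were MELK, NCEH1, BUB1, TOP2A, SEMA3C, DLGAP5, EXOC5, NUSAP1, ANLN and ERCC6L, with r from 0.990 to 0.995. BUB1, a kinetochore kinase, and TOP2A, which untangles DNA, are genes of mitosis, as are DLGAP5, NUSAP1, ANLN and ERCC6L. SEMA3C is a secreted guidance factor, NCEH1 a cholesterol ester hydrolase and EXOC5 an exocyst subunit.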

How the data were processed

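Per the study's methods, the authors mapped reads with HISAT2, counted them with HTSeq-count and deposited FPKM values, which are scaled by gene length and library size. The processing notes name the builds hg38, mm10 and GRCm38, without roles. The labels and the methods name different RNA extraction and library kits. The deposited FPKM values were used as they are. Reads per gene were recovered as the smallest whole numbers that give the values (tolerance 0.001) and show depth only. In each line, genes with a mean of at least 1 FPKM over its 6 libraries were kept, and log2(FPKM + 0.1) was modelled by lmFit and trended eBayes of the limma package (version 3.58.1, under R 4.3.3, with data.table at 1.17.8). Log2 fold changes are on this scale. The Benjamini-Hochberg adjustment of p-values ran over all genes tested in the line. The thresholds were an adjusted p of 0.05 and, as in the study, a fold change of 2 or 0.5. The smallest two-sided p of an exact permutation test of 3 against 3 libraries is 0.1. Differences between lines were contrasts of the knockdown effects, with all 18 libraries in 1 model. On simulated data, a planted log2 change of 1 was found in 99 of 100 genes for PATU8988T, 98 for PANC1 and 73 for MIA PaCa-2. Transcript GC content and overlaps came from GENCODE 29 (GRCh38), and promoters from RefSeq. The rule for named genes was all members, OFD1, examples from the lists and the 10 genes most like the members. Outside this rule, the markers and the genes whose exons overlap a member or that are its retrocopy were named. These genes were PDZD11, BRD8, CDC23, METTL15, AC027237.3, AL592166.1 and KIF4B, some of them named after their values were seen. The members, lists and rules were chosen with earlier results of these data known. Alternatives covered the pseudocount, the filter, scaling, array weights, the replicate block, GC centring and leaving out each library.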

Additional observations from a re-analysis of the deposited data

Results flagged for a closer look

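The values below are differences between 2 lines in the log2 fold change of a member, knockdown minus control, each past an adjusted p of 0.05 in the interaction fit of all 18 libraries. Differences were tested for 10 members in 3 pairs of lines, and the 3 pairs share libraries.

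Between PANC1 and PATU8988T, the log2 fold change was lower in PANC1 by -1.31 for KIF11, -0.73 for KIF14, -1.55 for KIF15, -0.99 for KIF18B, -1.43 for KIF20A, -1.05 for KIF23, -0.84 for KIF2C and -0.51 for KIF4A. KIF23 and KIF4A were lower in PANC1 and higher in PATU8988T. The KIF14 difference is the weakest of these (adjusted p = 0.0458) and lost its call in 17 of 26 alternatives, with adjusted p up to 0.120.

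Between MIA PaCa-2 and PATU8988T, the log2 fold change was lower in MIA PaCa-2 by -0.72 for KIF11, -0.84 for KIF15, -0.84 for KIF18B, -1.30 for KIF20A, -0.78 for KIF23, -0.41 for KIF2C and -0.78 for KIF4A.

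Between PANC1 and MIA PaCa-2, the log2 fold change was lower in PANC1 by -0.58 for KIF11, -1.003 for KIF14, -0.71 for KIF15, -0.85 for KIF18A, -1.03 for KIF20B and -0.43 for KIF2C, and lower in MIA PaCa-2 for KIF4A, with a difference of 0.28. Without MIA PaCa-2 control replicate 2, the differences for KIF11, KIF14, KIF18A and KIF20B were -0.35, -0.70, -0.52 and -0.62. The KIF11 difference lost its call in 6 of 27 alternatives, with adjusted p up to 0.0618.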

How the results depend on the processing

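In PANC1, all 10 members kept their direction and call in every alternative that tested them, and the filter at a mean of 5 FPKM left 8 of them, all lower. In MIA PaCa-2, the count of members lower by adjusted p, 7, ran from 5 to 10 over the alternatives. The count past both thresholds, 1, became 3 with array weights, 2 with GC centring and 1 to 3 when a library was left out. In PATU8988T, the count of members lower, 0, became 4 with GC centring and 0 to 1 when a library was left out. The MIA PaCa-2 values of KIF14, KIF18A and KIF20B, which had not passed the test, turned negative with array weights (-0.26, -0.26 and -0.26) and without control replicate 2 (-0.26, -0.27 and -0.26), and those of KIF14 and KIF18A with GC centring (-0.039 and -0.071). Over the fits that left out a library these 3 values reached 0.20, 0.23 and 0.36. The differences between MIA PaCa-2 and PATU8988T turned likewise for KIF14, KIF18A and KIF20B, with array weights to -0.10, -0.17 and -0.20, and without control replicate 2 to -0.038, -0.14 and -0.21, the highest values without another library being 0.43, 0.35 and 0.41. In PATU8988T, KIF20B became 0.049 without knockdown replicate 2, and KIF20A ran from -0.038 to 0.010 over the fits that left out a library, none past the test. The causes were not tested. The members whose change differed numbered 5 to 10 between PANC1 and MIA PaCa-2, 6 to 10 between PANC1 and PATU8988T, and 6 to 7 between MIA PaCa-2 and PATU8988T. Beyond the shares given above, the shares of all genes that passed were not counted for the alternatives. These counts of members therefore have no background beside them.

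Correlations of same-numbered deviations ran from -0.11 to 0.13, within the -0.23 to 0.23 of differently numbered ones. They showed no pairing by replicate number, but 3 replicates are too few to settle whether the samples were paired. With the replicate block, the members lower numbered 0 for PATU8988T, 7 for MIA PaCa-2 and 10 for PANC1. The shares of all genes with this block were not counted. KIF4A in PATU8988T then had an adjusted p of 0.0829, and KIF14 no longer differed between PANC1 and PATU8988T (adjusted p = 0.0611). Few libraries per group limit small changes, and depth does not, since each member had at least 293 reads in every library.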
